A study of Mus musculus with 4 samples.

Results

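The Smads and direct response genes of TGF-beta signalling were followed through their probes on the array. They comprised 9 genes, Smad2, Smad3, Smad4, Smad7, Ski, Skil, Pmepa1, Tgfbi and Tgif1, taken by matching each probe's transcript accession to the RefSeq symbol. The match gave 15 of the 41174 probes on the array, 1 probe each for 4 genes and several for the other 5. The probes came from 4 two-colour arrays of prostate spheres, which are epithelial balls that sorted basal cells form in culture. Basal cells were sorted from the prostates of adult FVB mice. The DAPT group, with 2 arrays, was cultured in 5 µM DAPT, an inhibitor of γ-secretase, the protease complex that frees the intracellular part of Notch, and the vehicle group, with 2 arrays, in DMSO, with fresh medium every 24 h in both. Red dye carried the sphere RNA and green dye a universal mouse reference RNA that was the same on each array, so a log2 ratio above 0 means more signal from the spheres than from the reference.

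TGF-beta binds a receptor pair at the cell surface, which phosphorylates Smad2 and Smad3. These join Smad4, enter the nucleus and act on target genes, among them genes that feed back on the pathway, such as Smad7, Skil and Pmepa1. In epithelia, the prostate included, the pathway is best known for restraining growth and for inducing extracellular matrix genes.

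Pmepa1 was the 1 gene of the 9 with every probe lower with DAPT at an adjusted p under 0.05. Its log2 changes were -1.17 and -0.97. Skil was the other gene with a probe past the threshold, and its 2 probes had changes of opposite sign. The remaining 7 genes, Smad2, Smad3, Smad4, Smad7, Ski, Tgfbi and Tgif1, had no probe past the threshold. Of these, Smad4, Smad7, Tgfbi and Tgif1 were also lower on every probe. Among all 15 probes, 2 were lower and 1 was higher at an adjusted p under 0.05. Over all 27301 probes tested the same threshold called 3.72% lower and 3.15% higher (6.87% in either direction). Higher calls were 45.8% of those calls, against 69.7% with median centring, which shifted the median of all probes by 0.14, and 29.4% with scale normalization. With 13 debris spots of DAPT replicate 2 kept in the normalization, 3 probes of the array were called higher and 48 lower, and none of the 15 passed. Changes are given as DAPT over vehicle on the log2 scale, fitted in limma on 2 arrays a group, with p-values adjusted by Benjamini-Hochberg over those 27301 probes. Whether the arrays of a group stand for separate cultures or animals is not in the labels, so the p-values measure only how these arrays spread, which may be technical. In RNA of whole spheres fewer cells of a type and less RNA per cell cannot be told apart.

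All 4 arrays lay on 1 slide and in 1 scan, DAPT at positions 1 and 2 and vehicle at positions 3 and 4, so position on the slide and treatment cannot be told apart. All 15 probes were well above background in both channels on every array, where 63.7% to 69.5% of all probe spots passed that mark in red. The defining basal keratin genes of the labelled cell type were present, with mean log2 red signals of 15.98 for Krt5 and 15.44 for Krt14, and so was the luminal keratin gene Krt8, at 15.49. The scanner software marked 49.6% and 50.9% of probe spots on the DAPT arrays as non-uniform or as outliers, against 11.6% and 29.2% on the vehicle arrays. Of the 15 probes followed here 12 were marked on both DAPT arrays and 0 on both vehicle arrays, and the part of these marks in the changes was not tested beyond the 3 probes that can be fitted without them. As a check of the treatment, 2 of 6 measured Notch targets were lower and 0 higher, Heyl at -0.86 ± 0.19 (adjusted p = 0.0211) and Notch3 at -0.81 ± 0.21 (adjusted p = 0.0394). Hes1 did not pass, at -0.70 ± 0.23 (adjusted p = 0.0945). The measured targets not named here did not pass either, with changes from -0.15 to 0.16. Over all named genes, each by its brightest tested probe, 4.66% were lower and 2.96% higher. Heyl and Notch3 were dim, with mean log2 red signals of 8.05 and 7.36. With a filter on all 4 arrays 3 targets were tested and 1 was lower. Without DAPT replicate 1, 0 of 6 passed (adjusted p = 0.0537 for Heyl and 0.196 for Notch3). Heyl was also lost without DAPT replicate 2 (0.0653) and Notch3 without vehicle replicate 2 (0.0802), and Hes1 passed without vehicle replicate 1 (0.00847).

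Promoters of 4 of the 9 genes, Tgfbi, Tgif1, Smad3 and Ski, stand in the RefSeq table for GRCm38.p6. Pmepa1 has none there. Each window runs from 250 bases before to 50 after the transcription start. Ski, whose brightest probe changed by -0.33, is not shown. Those of Tgfbi, Tgif1 and Smad3 are shown because their probes had close to the same change (the brighter of the pair for Smad3), while Tgfbi is a textbook Smad target and Smad3 is the factor itself. Capitals mark the Smad-binding core CAGAC, searched on both strands, so that GTCTG is the same core read from the other strand.
Tgfbi, chr13:56609336-56609635, plus strand: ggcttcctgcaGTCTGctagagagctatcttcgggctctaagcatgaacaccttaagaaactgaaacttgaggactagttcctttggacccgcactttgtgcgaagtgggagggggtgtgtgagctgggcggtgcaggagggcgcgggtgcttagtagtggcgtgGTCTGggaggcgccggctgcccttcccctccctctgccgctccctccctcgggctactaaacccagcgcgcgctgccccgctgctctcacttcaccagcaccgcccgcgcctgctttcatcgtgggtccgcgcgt
Tgif1, the most upstream of its 5 starts, chr17:70853483-70853782, minus strand: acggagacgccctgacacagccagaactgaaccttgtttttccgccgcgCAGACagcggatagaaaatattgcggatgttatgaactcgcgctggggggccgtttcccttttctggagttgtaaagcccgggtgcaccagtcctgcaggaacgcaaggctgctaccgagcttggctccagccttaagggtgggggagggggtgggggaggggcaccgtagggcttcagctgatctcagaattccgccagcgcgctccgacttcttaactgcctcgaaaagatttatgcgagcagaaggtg
Smad3, chr9:63757945-63758244, minus strand: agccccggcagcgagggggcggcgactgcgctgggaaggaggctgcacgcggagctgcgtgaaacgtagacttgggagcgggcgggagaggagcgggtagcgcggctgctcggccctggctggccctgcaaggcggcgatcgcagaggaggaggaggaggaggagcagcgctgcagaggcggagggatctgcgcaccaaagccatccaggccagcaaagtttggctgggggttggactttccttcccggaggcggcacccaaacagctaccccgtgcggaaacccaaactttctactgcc
The core was found 2 times in the Tgfbi window, 1 time in the Tgif1 window shown and 0 times in the Smad3 window. The other Tgif1 windows held it 0 to 2 times and the Ski window 0 times. Of all 32851 promoter windows of 300 bases in the table, 49.6% hold it, so a match is common. The palindromic Smad-binding element GTCTAGAC, which contains no CAGAC or GTCTG, was in none of the 3 windows and in 0.213% of all windows. GTGGGAA, the core bound by RBPJ, the DNA-binding partner of Notch, was in none of the 3 either, against 6.38% of all windows. Also searched was TGTCA, the TGIF core, found 1 time in the Tgif1 window shown and 0 times in those of Tgfbi and Smad3. Of all windows 45.4% hold it.

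**Figure D1:**
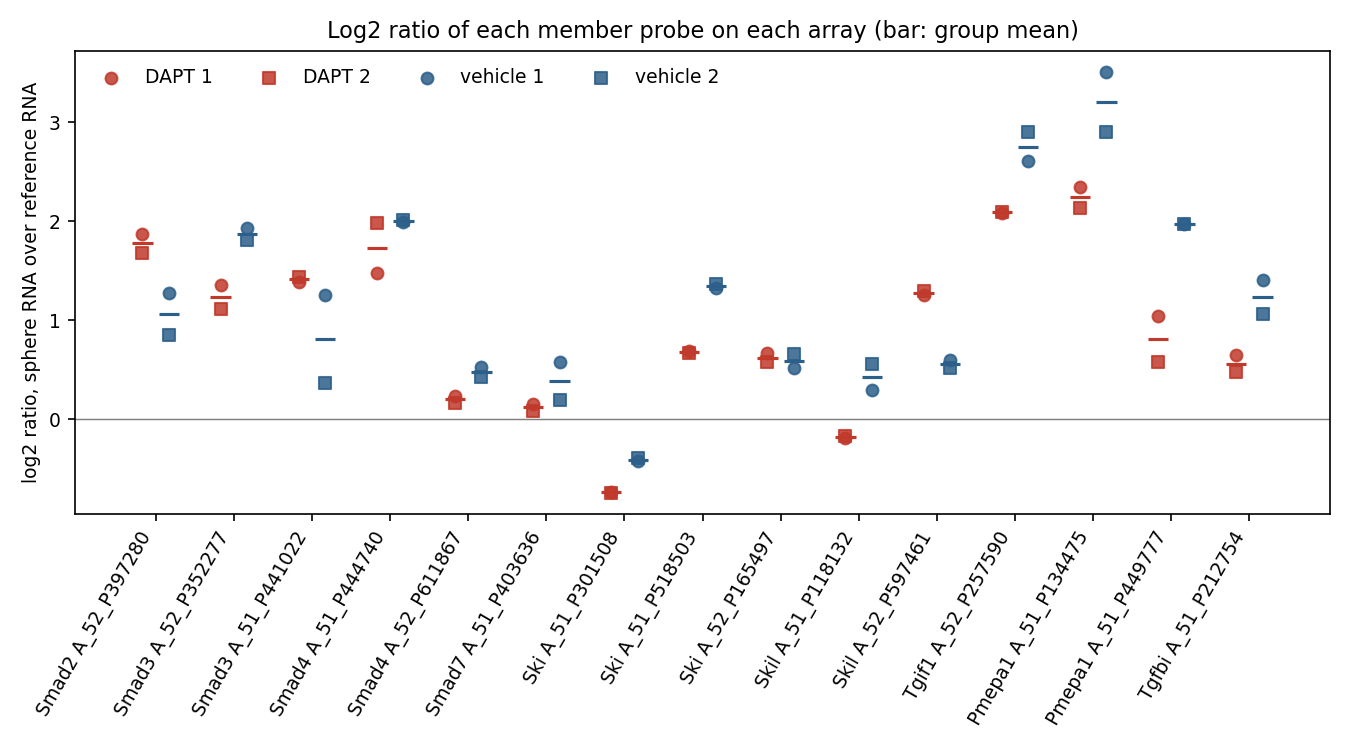
Log2 ratio of sphere RNA over reference RNA (y axis) for each of the 15 probes (x axis), with 1 point per array, DAPT in red and vehicle in blue, and a bar at each group mean. Both Pmepa1 probes lie lower on the DAPT arrays, and the 2 probes of Skil and of Smad3 go opposite ways.

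Smad2 and Smad3 are the receptor-activated Smads. The single Smad2 probe, A_52_P397280, had log2 ratios of 1.87 and 1.68 on the DAPT arrays, against 1.27 and 0.85 on the vehicle arrays. Both DAPT arrays were above both vehicle arrays, and the change of 0.72 ± 0.21 (SE, adjusted p = 0.0664) did not pass. The red channel differed by 0.77 and the green by 0.06, after each array's loess and between-array quantile normalization of brightness. Smad2 passed without background correction (adjusted p = 0.026) and without vehicle replicate 1 (0.0144). Its change was smaller, at 0.38 with median centring (0.317), 0.42 with scale normalization (0.282), 0.12 with the processed signals (0.895) and 0.097 with debris spots kept (0.968).

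Smad3 gave a split reading. Its brighter probe, A_52_P352277, had log2 ratios of 1.36 and 1.11 on the DAPT arrays, against 1.93 and 1.81 on the vehicle arrays. Its dimmer probe, A_51_P441022, had log2 ratios of 1.38 and 1.44 on the DAPT arrays, against 1.26 and 0.36 on the vehicle arrays. The groups were apart on both probes but in opposite order, with changes of -0.63 ± 0.20 (SE, adjusted p = 0.0776) and 0.60 ± 0.26 (SE, adjusted p = 0.192). The dimmer probe also varied most between vehicle arrays, with an SD of 0.63 (n = 2). It passed the threshold without vehicle replicate 1 (adjusted p = 0.00535), at a change of 1.05, and stood at 0.16 without vehicle replicate 2 (0.786). The brighter probe passed with scale normalization between arrays (-0.97, adjusted p = 0.016) but stood at -0.24 with median centring and at 0.10 with the processed signals, so neither a rise nor a fall of Smad3 can be given from these probes.

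Smad4, the partner that the receptor-activated Smads share, had 2 probes with closely matching changes. Probe A_51_P444740 had log2 ratios of 1.48 and 1.98 on the DAPT arrays, against 1.99 and 2.01 on the vehicle arrays. Probe A_52_P611867 had log2 ratios of 0.23 and 0.16 on the DAPT arrays, against 0.52 and 0.42 on the vehicle arrays. DAPT lay below vehicle on both, by little, and the changes were -0.27 ± 0.22 (SE, adjusted p = 0.479) and -0.27 ± 0.19 (SE, adjusted p = 0.419). The 95% intervals ran from -0.75 to 0.20 and from -0.69 to 0.14, so a fall of up to 0.75 or a rise of up to 0.20 on the log2 scale is inside them. Probe A_51_P444740 stood at -0.02 without DAPT replicate 1, -0.53 without DAPT replicate 2 and -0.68 with scale normalization. Both changes were above 0 with median centring (0.14 and 0.15) and with the processed signals (0.12 and 0.09).

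Smad7 is the inhibitory Smad, a target of the pathway that blocks its receptor. Its probe, A_51_P403636, had log2 ratios of 0.15 and 0.08 on the DAPT arrays, against 0.57 and 0.20 on the vehicle arrays. Both DAPT arrays were lower, but vehicle replicate 2 lay within 0.05 of DAPT replicate 1. The change was -0.27 ± 0.21 (SE, adjusted p = 0.469), with a 95% interval from -0.72 to 0.18. It stood at -0.08 without vehicle replicate 1, -0.45 without vehicle replicate 2 and -0.68 with the processed signals.

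**Figure D2:**
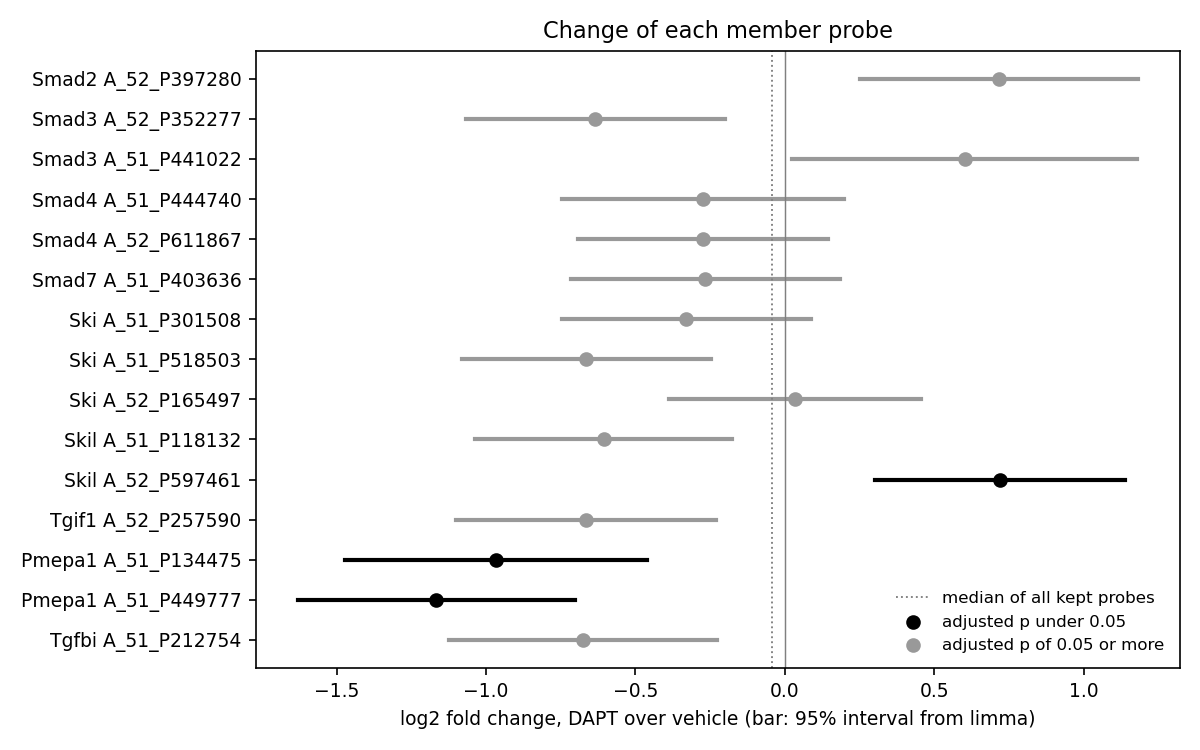
Log2 fold change of DAPT over vehicle (x axis) with its 95% interval from limma for each of the 15 probes (y axis), black where the adjusted p is under 0.05. The 2 Pmepa1 probes and 1 Skil probe are black, and 11 of 15 points lie below 0.

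Ski and Skil (also called SnoN) are related corepressors that bind Smad complexes and silence their targets. Skil is also induced by the pathway. Ski was measured by 3 probes. The brightest, A_51_P301508, had log2 ratios of -0.73 and -0.74 on the DAPT arrays, against -0.43 and -0.39 on the vehicle arrays, and it was the only one of the 15 that was below 0 on every array. Probe A_51_P518503 had log2 ratios of 0.69 and 0.67 on the DAPT arrays, against 1.32 and 1.37 on the vehicle arrays. Replicates of that probe lay within 0.05 of each other in each group and the groups were far apart. The third, A_52_P165497, had log2 ratios of 0.66 and 0.58 on the DAPT arrays, against 0.52 and 0.66 on the vehicle arrays, with overlapping groups.

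The Ski changes were -0.33 ± 0.19 (SE, adjusted p = 0.322), -0.66 ± 0.19 (SE, adjusted p = 0.0586) and 0.03 ± 0.19 (SE, adjusted p = 0.939), in that order, and no probe passed. For A_51_P518503 the red signal was higher with DAPT, by 0.26, and the green signal by 0.92. Both channels were lower on vehicle replicate 2 than on vehicle replicate 1, with log2 red at 9.92 against 11.04 and log2 green at 8.55 against 9.71. The split by channel thus does not locate the lower ratio. The change with the red channel alone was 0.26. This probe was the only one of the 15 in which red and ratio went opposite ways. It passed with scale normalization (-0.89, adjusted p = 0.0226) and stood at -0.29 with median centring (0.353). The brightest Ski probe stood at 0.12 with median centring.

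Skil showed the widest disagreement between probes of a gene, 1.33 on the log2 scale. Its brighter probe, A_51_P118132, had log2 ratios of -0.19 and -0.17 on the DAPT arrays, against 0.30 and 0.55 on the vehicle arrays. Its dimmer probe, A_52_P597461, had log2 ratios of 1.26 and 1.29 on the DAPT arrays, against 0.60 and 0.51 on the vehicle arrays. The groups did not overlap on either probe, and their order was reversed between the probes. The brighter probe had a change of -0.61 ± 0.20 (SE, adjusted p = 0.0878), which did not pass, and stood at -0.26 with median centring and -0.24 with the processed signals. The dimmer one rose by 0.72 ± 0.19 (SE, 1.65-fold, adjusted p = 0.0441). In the red channel the probes differed by -0.99 and 1.12, further apart than in the ratio, and in green by -0.38 and 0.40. Both probes carry the same transcript accession. Where they lie on the transcript was not analysed here.

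The rise of the dimmer Skil probe was lost on leaving out DAPT replicate 1, DAPT replicate 2 or vehicle replicate 2 (adjusted p = 0.104, 0.154 and 0.0958). It just missed the threshold in the authors' deposited value table and without a filter on dim probes (adjusted p = 0.05004 and 0.05008), and did not pass with scale normalization (0.134), the processed signals (0.316), the red channel alone (0.28) or debris spots kept (0.665).

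Tgif1 encodes a homeodomain repressor that is recruited to Smad complexes. Its probe, A_52_P257590, had log2 ratios of 2.08 and 2.09 on the DAPT arrays, against 2.61 and 2.90 on the vehicle arrays. The DAPT arrays were within 0.01 of each other and both lay below the vehicle arrays. The change of -0.67 ± 0.20 (SE, adjusted p = 0.068) did not pass. The red channel was lower by more than the ratio, with a difference of -0.82, and green differed by -0.15. Tgif1 passed without vehicle replicate 1 (-0.81, adjusted p = 0.0321) and with scale normalization (-1.20, adjusted p = 0.0103), and with the processed signals it stood at -0.31 and with median centring at -0.26.

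Pmepa1 encodes a membrane protein that is strongly induced by TGF-beta and holds receptor-activated Smads away from the receptor. Its brighter probe, A_51_P134475, had log2 ratios of 2.34 and 2.14 on the DAPT arrays, against 3.51 and 2.90 on the vehicle arrays. Its dimmer probe, A_51_P449777, had log2 ratios of 1.04 and 0.58 on the DAPT arrays, against 1.97 and 1.98 on the vehicle arrays. Every DAPT value was lower than every vehicle value on both probes, and on the vehicle arrays the brighter probe stood at the 99.4th percentile of all tested probes for sphere over reference. The scanner software marked both probes on both DAPT arrays and on vehicle replicate 2, so neither could be fitted with marked spots left out.

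Pmepa1 fell on both. The log2 change was -0.97 ± 0.23 on A_51_P134475 (SE, 1.95-fold lower, adjusted p = 0.0285) and -1.17 ± 0.21 on A_51_P449777 (SE, 2.24-fold lower, adjusted p = 0.00829). The sphere channel was lower as well. On A_51_P134475 the log2 red signal was 11.997 and 11.90 on the DAPT arrays, against 13.04 and 12.48 on the vehicle arrays. On A_51_P449777 it was 8.94 and 8.75 on the DAPT arrays, against 9.93 and 10.31 on the vehicle arrays. Red differed by -0.81 and -1.28 between the groups, and green by only 0.15 and -0.11. Over all tested probes the median size of the green difference was 0.25, so the reference signal of Pmepa1 differed less between the groups than that of most probes.

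The fall on A_51_P134475 was lost on leaving out DAPT replicate 2 (-0.86, adjusted p = 0.0834) or vehicle replicate 1 (-0.66, adjusted p = 0.0909), under median centring (-0.53, adjusted p = 0.245) and in the processed signals (-0.33, adjusted p = 0.633), and neither probe passed with the red channel alone (adjusted p = 0.37 and 0.264) or with debris spots kept (0.239 and 0.156). On A_51_P449777 it held without each array in turn (-1.39 to -0.94) and did not pass with the processed signals (-1.02, adjusted p = 0.097).

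**Figure D3:**
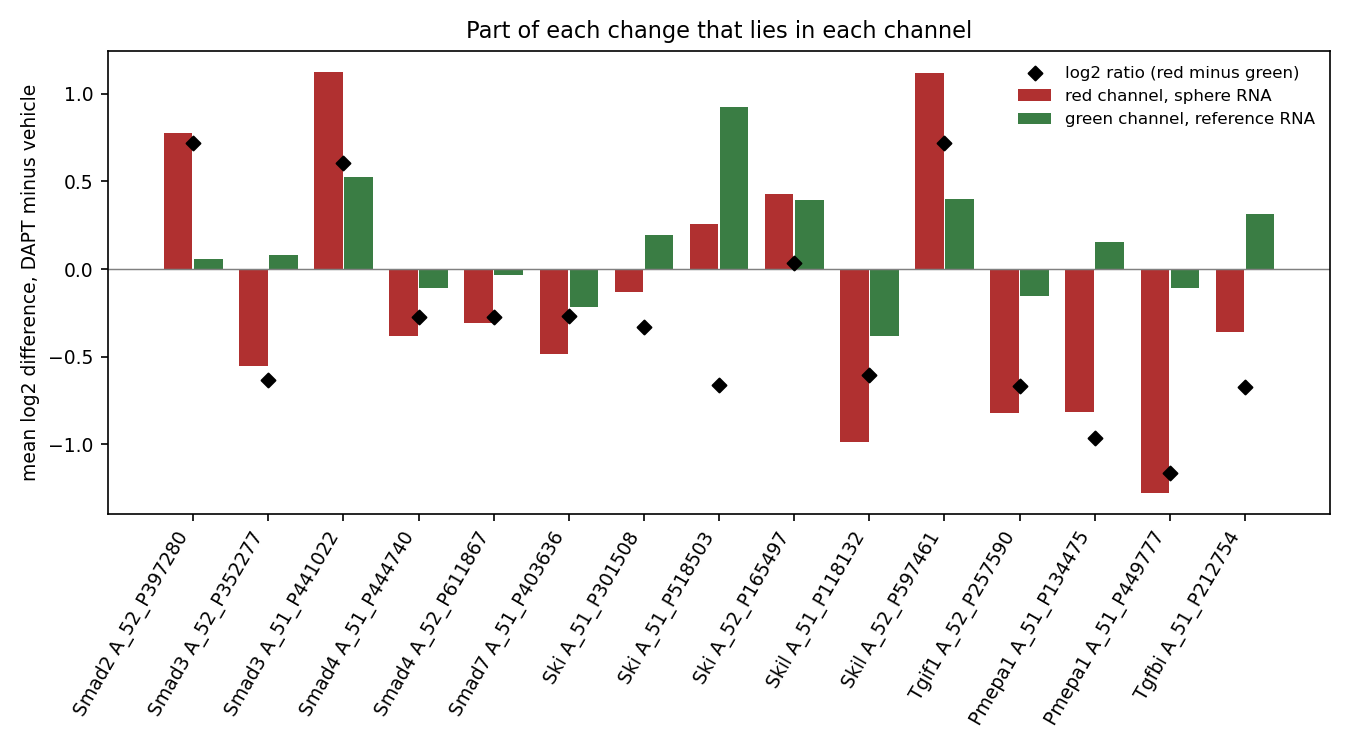
Mean log2 difference of DAPT minus vehicle (y axis) in the red sphere channel and the green reference channel for each of the 15 probes (x axis), with the difference of the log2 ratio as a diamond. Both Pmepa1 probes are lower in red by 0.81 and 1.28 with green bars of 0.15 and -0.11, while the lower ratio of Ski probe A_51_P518503 comes with a green bar of 0.92.

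Tgfbi encodes a secreted matrix protein, βig-h3, found as a TGF-beta-induced transcript. Its probe, A_51_P212754, had log2 ratios of 0.64 and 0.48 on the DAPT arrays, against 1.40 and 1.07 on the vehicle arrays. Both DAPT arrays were lower than both vehicle arrays. The change of -0.67 ± 0.21 (SE, adjusted p = 0.0712) did not pass, and it split between a red difference of -0.36 and a green one of 0.31. It was unmarked on all 4 arrays, as was Smad2. Tgfbi passed without vehicle replicate 2 (-0.84, adjusted p = 0.0321) and with scale normalization (-0.87, adjusted p = 0.031).

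Set side by side, 11 of the 15 probes were below 0 and 4 above. In 11 both DAPT arrays lay below both vehicle arrays and in 3 above them, with 1 overlapping. Over all tested probes, 30.6% had both DAPT arrays below and 23.7% above (54.3% either way), so separation as such is common on these arrays. In the red channel alone 6 were below, 2 above and 7 overlapping. The median change of the 15 was -0.33, against -0.04 over all tested probes, and with the brightest probe of each of the 9 genes it was -0.61, against -0.07 over all named genes. The changes of the brighter Smad3 probe, the Tgif1 and Tgfbi probes, the brighter Skil probe and Ski probe A_51_P518503 lay between -0.67 and -0.61, and 6 of the 15 had an adjusted p between 0.05 and 0.1.

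With vehicle, the highest mean log2 ratios were 3.21 ± 0.43 for Pmepa1 (A_51_P134475), 2.75 ± 0.21 for Tgif1 and 2.00 ± 0.01 for Smad4 (A_51_P444740), each SD with n = 2. The lowest was -0.41 ± 0.02 for Ski (A_51_P301508). Ratios of 13 probes were above 0 on all 4 arrays. These ratios compare each probe with itself in the reference RNA and set no gene's abundance against another's.

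By likeness of pattern over the 4 arrays, the probes closest to Pmepa1 A_51_P449777 were those of Dis3l2, Aqp8 and Tcf7l2. Their root mean square differences from it were 0.032, 0.043 and 0.047 on the log2 scale after centring each probe on its own mean, with changes of -1.13, -1.19 and -1.21. With 4 arrays this is a description only.

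The wider pathway was read from 4 lists of other genes, each gene by its brightest tested probe, where 2.96% of all named genes were higher and 4.66% lower. The lists were chosen with earlier results of these data known, so their counts are a description only. Of 3 other Smads measured, Smad1, Smad5 and Smad6, 0 passed in either direction at the adjusted threshold in limma, with changes of -0.57, -0.19 and -0.26 (1 of them at an unadjusted p under 0.05). Smad1 passed with scale normalization (-0.88, adjusted p = 0.0237) and stood at -0.16 with median centring. Of 28 regulators and partners 1 was lower and 0 higher. The median of that list was -0.04, close to the -0.07 of all named genes. With median centring 2 of its members were higher and 0 lower.

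Of 14 ligands, latency proteins and receptors 3 fell and 1 rose. Ltbp2, a matrix protein of the latent TGF-beta binding protein family, was at -1.35 ± 0.20 (adjusted p = 0.00225), Tgfb1, the main ligand gene, at -1.02 ± 0.22 (adjusted p = 0.0176) and Thbs1, an activator of the latent ligand, at -0.89 ± 0.23 (adjusted p = 0.0385). Itgb6, the integrin subunit that activates latent TGF-beta in epithelia, was at 1.02 ± 0.20 (adjusted p = 0.0125). The red difference was -0.63 for Ltbp2, -0.25 for Tgfb1 and -0.07 for Thbs1, each smaller in size than the change of the ratio. For Ltbp2 the log2 red signal was 10.25 and 9.26 on the vehicle arrays, where its log2 ratios were -0.61 and -0.71. Red signals thus varied where the ratio varied little, so this split does not locate the falls. Tgfb1 was lost on leaving out DAPT replicate 2 (adjusted p = 0.0618), Thbs1 without DAPT replicate 1 or vehicle replicate 2 (0.192 and 0.0877) and Itgb6 without DAPT replicate 1 (0.0541). Itgb6 stood at 0.12 with scale normalization (adjusted p = 0.787) and at 0.26 with debris spots kept (0.926). Median centring took Tgfb1 to -0.60 (0.172) and Thbs1 to -0.42 (0.215). With median centring 1 fell and 1 rose, and in the processed signals none of the 14 passed.

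Of 33 other response genes 15 fell and 2 rose, with a median of -0.67. The largest changes were those of Igfbp3, which binds insulin-like growth factors, at 3.18 ± 0.20 (adjusted p = 1.79e-05), the metalloproteinase inhibitor gene Timp1 at -2.28 ± 0.21 (adjusted p = 0.00015), the fibronectin gene Fn1 at -2.20 ± 0.20 (adjusted p = 0.000135) and the collagen crosslinking enzyme gene Lox at -2.14 ± 0.20 (adjusted p = 0.000182). Beside Igfbp3 the integrin subunit gene Itgb1 rose, at 0.98 ± 0.25 (adjusted p = 0.0395), though not without DAPT replicate 2 (adjusted p = 0.12) or vehicle replicate 1 (0.13), with scale normalization (0.52, adjusted p = 0.323), with the processed signals (0.217) or with debris spots kept (0.322). It was named after its value was seen. With Ltbp2 and Thbs1 standing in both lists, 17 of 76 genes over the 4 lists fell and 3 rose. Median centring left 8 falls, the processed signals 7, debris spots kept 5 and the red channel alone 0, where limma called 1 probe of the whole array, while the median of the response genes stayed between -0.78 and -0.28 over the 16 alternatives. Relative to all tested probes under the same alternative it was -0.74 to -0.27.

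**Figure D4:**
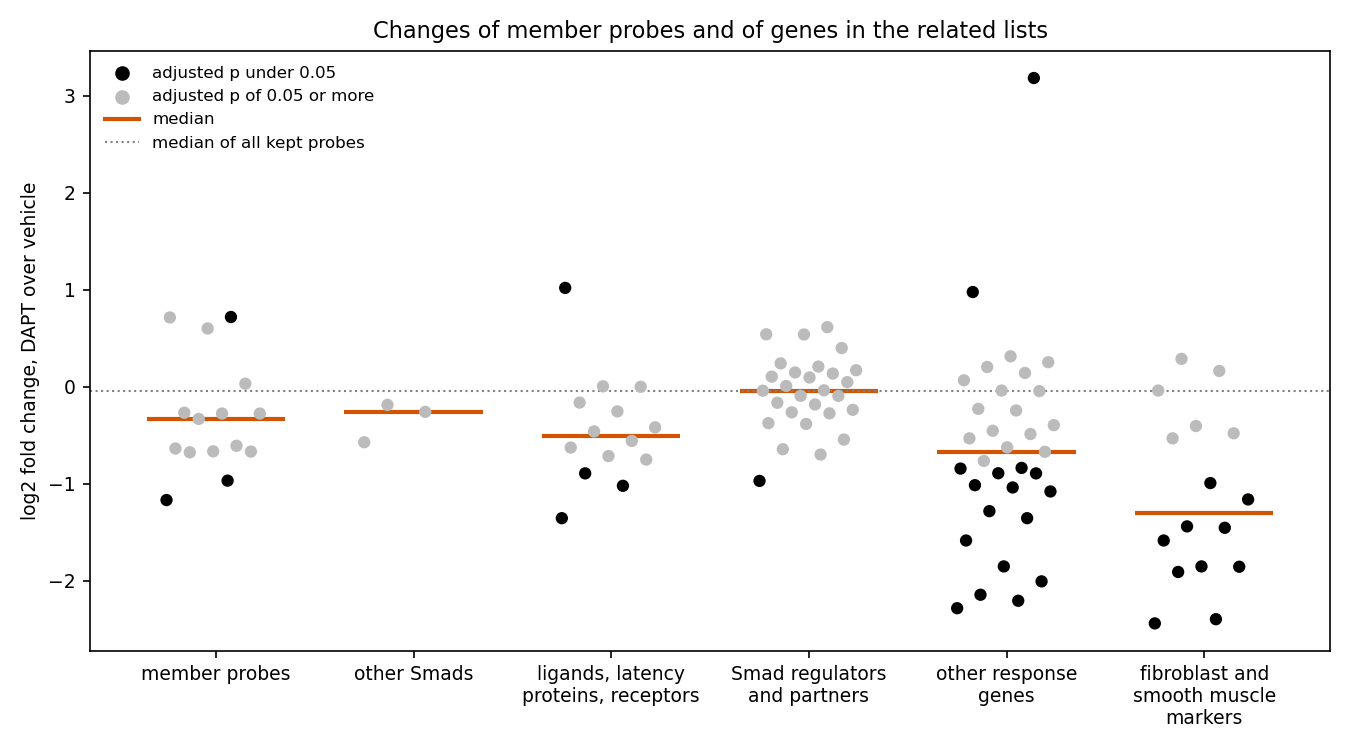
Log2 fold change of DAPT over vehicle (y axis) of the 15 probes followed here, of the genes of the 4 related lists and of fibroblast and smooth muscle markers (x axis), black where the adjusted p is under 0.05, with each list's median as an orange bar. The response genes have a median of -0.67 and the markers one of -1.30, each gene by its brightest probe, on which basis the 9 genes followed here have one of -0.61, against -0.33 over their 15 probes.

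Markers of fibroblasts and smooth muscle did not all change alike, and most of the smooth muscle ones did not pass. Of 16 such markers 10 were lower and 0 higher, and their summed red signal was 81792 and 90440 on the DAPT arrays, against 127012 and 133321 on the vehicle arrays. That sum rests mostly on the markers with the most red signal, Acta2 and Tagln, which did not pass (-0.04 and -0.53), and Mgp, which fell (-2.44). All 16 were tested. Of the response genes 4 are also in this marker list, and without them 13 of 29 fell and 2 rose, with the same median. Of 6 leukocyte markers and 3 endothelial markers that were measured, 0 passed in either direction at the adjusted threshold in limma, nor at an unadjusted p under 0.05, and Cdh5, Kdr and Tek were not well above background. Of basal markers 1 of 8 was lower (Krt15), of luminal markers 2 of 7 and of neuroendocrine markers 1 of 3, with 0 higher in each. These counts turn on the scaling: with median centring 3 basal markers were higher and 0 lower and 1 luminal marker lower, and with scale normalization 0 basal markers were higher and 3 lower and 5 luminal markers lower. Fibroblast and smooth muscle markers numbered 9 lower and 1 higher with median centring, 8 and 0 with scale normalization and 3 and 0 with debris spots kept. The part of these markers in the changes of Pmepa1 and of the response genes was not tested.

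**Figure D5:**
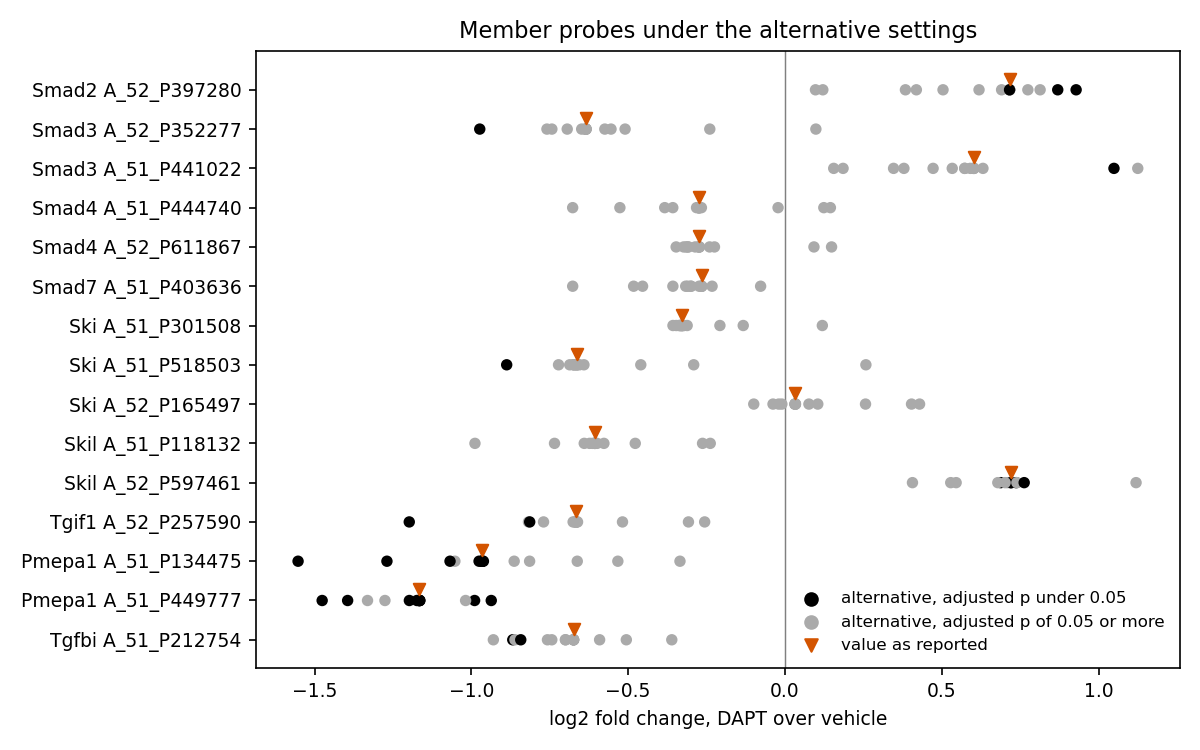
Log2 fold change of DAPT over vehicle (x axis) of each of the 15 probes (y axis) under up to 16 alternative settings, black where the adjusted p is under 0.05, with the value as reported as an orange triangle. Both Pmepa1 probes stay below 0 in each alternative in which they were tested, which leaves out the one without marked spots. The probes of Smad4 and Ski and the brighter one of Smad3, 6 in all, cross 0.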

How the data were processed

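RNA of prostate spheres was hybridised in red against reference RNA in green on 4 two-colour Agilent arrays, 2 per group. The authors' deposited scanner files hold spot intensity values, and the log10 ratio and processed signals, from Feature Extraction 10.7.3.1, per the file headers. The authors' deposited table of log2 values correlated at 0.9995 to 0.9998 with the ratios used here. Its normalization steps are not given in the sources here.

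Median signals were background-corrected by normexp with an offset of 50 in limma 3.58.1 (R 4.3.3). Left out before that were 13 debris spots on DAPT replicate 2, whose local background was over 5 times the median. Signals were then loess-normalized within each array, with control spots given no weight in the loess. Single-channel levels were set by Aquantile normalization. The 27301 probes that Feature Extraction marked as well above background in red on each array of the DAPT or the vehicle group were tested with lmFit and eBayes (2 residual and 9.82 prior degrees of freedom) and adjusted by Benjamini-Hochberg over all of them, at a threshold of 0.05. On data simulated with independent noise of the fitted spread, 88% of changes of 1 on the log2 scale were recovered. Of 203 probes called there, 15 were unchanged ones. The simulation held no effect of array, normalization, spot marks or slide position, so it does not give the power in the real data. Arrays give no counts, so their number limits the precision.

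RefSeq symbols (GRCm38.p6) named 24375 probes by transcript accession. The text names every probe of the 9 genes, up to 4 genes of largest change past the threshold in each related list, the 3 marker genes of most red signal, and the 3 probes most like the Pmepa1 probe of largest change. Genes named outside this rule (Krt8, Hes1, Heyl, Notch3, Itgb1 and the other Smads) were chosen after their values were seen, and some genes that the rule covers are not reported here. Members and lists were chosen with earlier results of these data known. Alternatives covered normalization, background, filters, red alone, the deposited table, the replicate number as a block and leaving out each array.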

Additional observations from a re-analysis of the deposited data

How the results depend on the processing

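Over 16 alternatives the 15 probes gave 222 values, of which 183 kept their direction and side of the threshold, 18 kept their direction but no longer passed, 10 newly passed and 11 changed sign. The 9 probes that never changed sign where tested were both of Pmepa1 and Skil, the dimmer one of Smad3, and those of Smad2, Smad7, Tgif1 and Tgfbi. Sign changes came with median centring (Smad4 at 0.14 and 0.15, Ski A_51_P301508 at 0.12), the processed signals (Smad4 at 0.12 and 0.092, Smad3 A_52_P352277 at 0.10), the red channel alone (Ski A_51_P518503 at 0.26), and, for Ski A_52_P165497, scale normalization (-0.10), debris spots kept (-0.020), and leaving out DAPT replicate 1 (-0.01) or vehicle replicate 1 (-0.038). The cause was not tested. Of 378 values of the 25 other genes named, 53 no longer passed, 4 newly passed and 14 changed sign, none of the 14 in a gene that passed as reported. With median centring these were Acta2 (0.42) and Krt8 (0.12), with scale normalization Krt5 (-0.76) and Krt14 (-0.86), with the processed signals Acta2 (0.13), with debris spots kept Krt14 (-0.034), and with the red channel alone Smad1 (0.035), Tagln (0.11) and Krt5 (-0.35). The other 5 came on leaving out an array: Acta2 changed sign without DAPT replicate 1 (0.046) and vehicle replicate 2, Krt14 without the same arrays and Smad5 without DAPT replicate 1. Over all 4 such omissions Acta2 ranged between -0.20 and 0.13, Krt14 between -0.28 and 0.36 and Smad5 between -0.48 and 0.11.

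Probes called higher and lower over the whole array numbered 860 and 1016. They were 1601 and 697 with median centring, 498 and 1197 with scale normalization, 377 and 434 with the processed signals, 0 and 1 with the red channel alone (3421 at an unadjusted p under 0.05), 3 and 48 with debris spots kept, 327 and 202 of 11677 probes with marked spots left out, and 1098 and 1251 with the replicate block. Of the 15 probes, 1 was higher and 2 lower. The counts were 1 and 1 with median centring, 0 and 6 with scale normalization, 0 and 0 with the processed signals, the red channel alone, debris spots kept and marked spots left out (3 probes tested), 0 and 2 with the deposited table and without a filter on dim probes, 2 and 2 without background correction and with the replicate block, and 0 and 1 with the brightest probe per gene. Genes of the 4 related lists called higher and lower, 3 and 17, were 5 and 8 with median centring, 1 and 19 with scale normalization, 1 and 7 with the processed signals, 0 and 0 with the red channel alone, 0 and 5 with debris spots kept and 0 and 3 with marked spots left out.

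Leaving out each array in turn gave 537 to 1298 probes higher and 677 to 1400 lower (fewest without DAPT replicate 2, most without vehicle replicate 1), 0 to 3 of the 15 probes higher and 1 to 3 lower, and 2 to 3 list genes higher and 14 to 20 lower. An array left alone in its group was assumed to vary like the other pair. Same-numbered arrays correlated at 0.0942 in their deviations from group means, so the numbers were not taken to pair arrays. With the replicate block Smad2 passed (adjusted p = 0.0433) and no other call among the 15 probes changed. Slide as a block was not run, since all arrays lay on 1 slide. Position on the slide cannot be told apart from treatment, and 2 arrays a group limit every call.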
